A study of Mus musculus with 6 samples.

Results

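The genes described here encode the ephrins and their Eph receptors, the Slits and their Robo receptors, and the netrins with their receptors Dcc and Unc5a to Unc5d. They were chosen by name: every probe set with exactly 1 gene symbol in the platform annotation that is an Eph, ephrin, Slit, Robo, netrin, Unc5 or Dcc symbol, with the probe set of the highest mean over the 6 arrays standing for its gene. This gave 37 genes from 73 probe sets, out of 45037 probe sets other than controls. The arrays hold total RNA of DGCs isolated from the hippocampus, taken here to be dentate granule cells, of control mice and of transgenic mice that the series title calls HuD overexpressors. HuD, the product of Elavl4, binds and stabilises mRNAs in neurons. Each group has 2 mice and 3 arrays, since mouse 2 of each group was measured on 2 arrays. Mice were assigned from the sample descriptions; the titles number the 2 arrays of control mouse 2 as controls 1 and 2, so whether they share a mouse rests on the descriptions alone. The titles mark the array of mouse 1 of each group and array 1 of transgenic mouse 2 with the tag re-LCM. The labels give no strain, age, sex or transgene promoter, and they call the other mice only control.

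Axon guidance genes steer growing axons and later shape synapses. Eph receptors are receptor tyrosine kinases whose ligands, the ephrins, sit on the membrane of a neighbouring cell, so that contact signals into both cells. EphA receptors mainly bind the lipid-anchored ephrin-A ligands and EphB receptors mainly the transmembrane ephrin-B ligands, while EphA4 binds both. Slits are secreted proteins that repel axons through Robo receptors. Netrins are secreted and attract axons through Dcc or repel them through Unc5 receptors. In the hippocampus these systems help to set up layered connections, and Eph receptors stay on mature synapses.

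The deposited values are linear intensities, 1 per probe set and array. Values under 10.1, the 25th percentile of all values, were set to that floor, because dim values have no order, and log2 was taken. Differences are log2 of transgenic minus control, from a limma fit with the mean of each mouse as 1 value (n = 2 mice per group), with its standard error (SE). Genes whose mean log2 value lay above the median of all probe sets, an intensity of 30.3, were tested, 14678 in all. Of these, 11138 had exactly 1 gene symbol. The other 3540 were probe sets with several symbols or none, each counted here as 1 gene. P-values were adjusted over all 14678 by the Benjamini-Hochberg method at a threshold of 0.05. Intensities are listed in a fixed order: control mouse 1, control mouse 2 array 1, control mouse 2 array 2, then the transgenic arrays in the same order. Intensities of different probe sets are not comparable, so no gene is ranked against another by level.

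All 11 listed granule cell markers were tested and above the floor on all 6 arrays, Prox1, the granule cell transcription factor, among them at 497 to 651. RNA of other cells was present as well. The summed intensity of the 9 tested oligodendrocyte markers ran from 4898 to 12392 in control and from 5654 to 8370 in transgenic mice, and that of the 7 tested vascular markers from 342 to 516 and from 309 to 379. The summed intensity of the 10 tested interneuron markers, of 12 listed, ran from 2996 to 3716 in control and from 3494 to 3783 in transgenic mice. Such sums mostly follow the brightest genes. Taken singly, 8 of the 10 interneuron markers were lower in transgenic mice (median log2 difference -0.39). So were 9 of 9 oligodendrocyte (-0.65), 5 of 7 vascular (-0.26) and 7 of 11 granule cell markers (-0.03), against 7271 of all 14678 tested genes. Among the untested markers, Dlx1 of the interneuron list and Pecam1 of the vascular list were at the floor on all 6 arrays. Ttr, a choroid plexus gene, stood apart on control mouse 1 (11996) and on transgenic mouse 2 array 1 (17436), against 178 to 1118 on the other arrays. Elavl4 itself was no higher in the transgenic mice at its chosen probe set, at 63.7 to 122 in control and 60.1 to 93.3 in transgenic mice (log2 difference -0.33, SE 0.27). Its other 2 probe sets read 40.6 to 95.1 and 43.7 to 104 in control, against 58.0 to 72.0 and 35.8 to 72.0 in transgenic mice. Where these probe sets lie in the transcript was not checked, so the values do not show whether the transgene was expressed.

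Of the 37 guidance genes, 24 passed the filter on dim values and 13 did not. Granule cell captures of both groups held signal from all 3 systems. The genes that passed were 6 of 9 EphA receptors, 1 of 4 EphB receptors, 3 of 5 ephrin-A and 3 of 3 ephrin-B ligands, 2 of 3 Slits, 4 of 4 Robo receptors, 1 of 4 netrins and 4 of 5 netrin receptors. None of the 24 passed the threshold between transgenic and control mice (limma, adjusted p = 0.999 for each), and 0% of all tested genes did. No member had an unadjusted p under 0.05 either, against 4.31% of all tested genes, and the smallest was 0.0559. The 3 control and 3 transgenic arrays overlapped for all 24, while they did not overlap for 8.07% of all tested genes. With fewer arrays more genes separate, members or not. Without transgenic mouse 2, 16 members did not overlap (66.7%), against 48.9% of all tested genes, and without control mouse 2 it was 9 (37.5%) against 45.2%. Without transgenic mouse 1 or control mouse 1 it was 2 members each (8.33%), against 15.7% and 17.3%. Leaving out array 1 or array 2 of control mouse 2 gave 1 and 3 members (4.17% and 12.5%), against 16.9% and 18%, and leaving out array 1 or array 2 of transgenic mouse 2 gave 4 and 7 (16.7% and 29.2%), against 18.5% and 19.2%. Without the 2 arrays high in Ttr, 1 of them the only array of control mouse 1, it was 6 members (25%) against 31.2%. A missed threshold with 2 mice per group does not show that a gene did not differ.

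**Figure D1:**
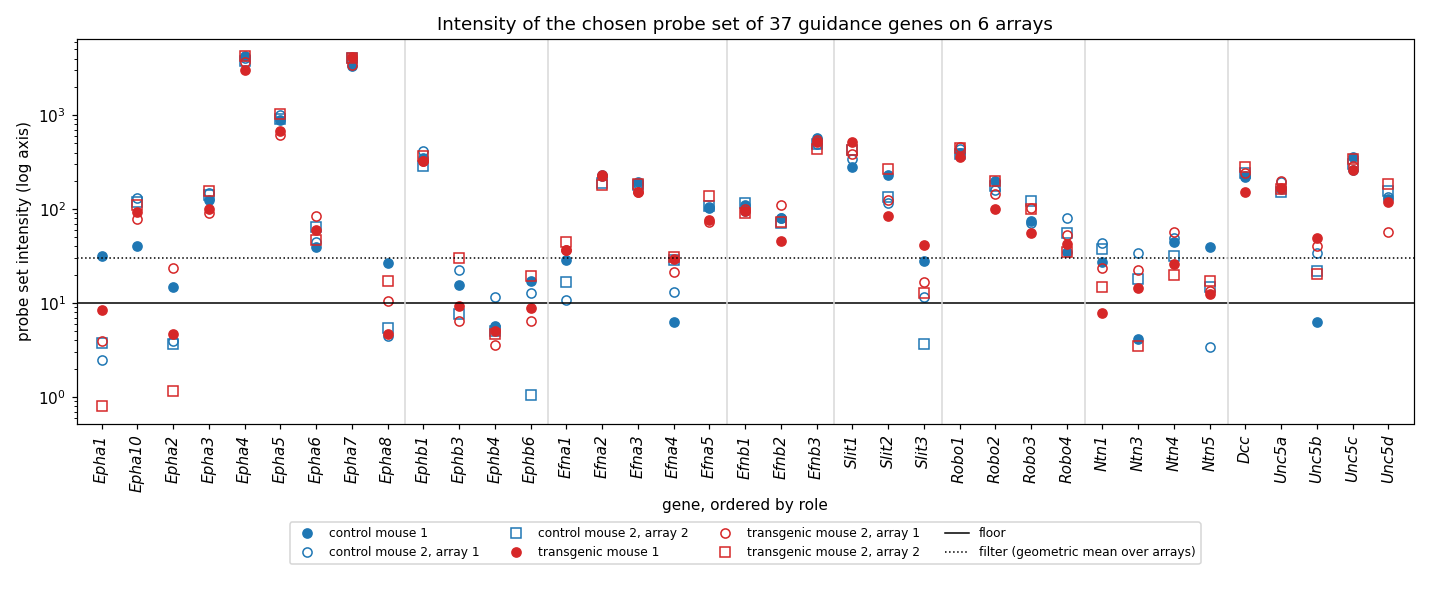
Intensity (log axis) of the chosen probe set of each of the 37 guidance genes on the 6 arrays, ordered by role, with control arrays in blue and transgenic arrays in red, the floor of 10.1 as a solid line and the filter at 30.3 as a dotted line. Control and transgenic points overlap for each of the 24 genes past the filter, and the points of dim genes scatter around the floor.

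The EphA receptors had the most tested members, 6, of which 3 were on the higher and 3 on the lower side of 0. Epha4, whose receptor binds ephrins of both classes and acts on dendritic spines, read 4223, 4066 and 3802 in control and 3021, 3694 and 4223 in transgenic mice. The transgenic range enclosed the control range, with transgenic mouse 1 lowest, and the difference was -0.24 (SE 0.20). All 5 Epha4 probe sets passed the filter and all were on the lower side, from -0.24 to -0.11. Epha7, a receptor with roles in the adhesion and repulsion of cortical cells, read 3346, 3837 and 4032 in control and 4195, 3380 and 4081 in transgenic mice. Its difference of 0.12 (SE 0.18) lay within the spread of the control arrays, and its other 3 probe sets gave -0.06 to 0.12.

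Epha5, a receptor for ephrin-A ligands in forebrain neurons, read 880, 996 and 909 on the control arrays. On the transgenic arrays it read 670, 613 and 1040, so 2 arrays lay below and 1 above all control arrays. The difference was -0.32 (SE 0.18, 95% interval -0.78 to 0.14), and the other 3 probe sets gave -0.29 to 0.03. Epha3, a receptor with high affinity for ephrin-A5, showed the same layout, with 124, 147 and 143 in control and 99.1, 89.8 and 156 in transgenic mice (difference -0.31, SE 0.19). A second Epha3 probe set past the filter gave -0.02. For both receptors the low transgenic arrays were those tagged re-LCM. Within the tagged arrays the difference was -0.46 for Epha5 and -0.40 for Epha3, against 0.13 and 0.10 within the others. The only tagged control array was that of control mouse 1, so tag and mouse cannot be told apart among the controls. In transgenic mouse 2, array 1 was tagged and array 2 was not. Epha5 read 613 and 1040 on these, and Epha3 read 89.8 and 156. What set these 2 arrays of 1 mouse apart was not tested.

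Epha6, another ephrin-A receptor of the brain, was measured by 1 dim probe set, at 39.2, 44.3 and 64.1 in control and 60.1, 83.7 and 46.8 in transgenic mice. These values interleaved, and the difference was 0.42 (SE 0.21, 95% interval -0.12 to 0.97). Without the 2 arrays high in Ttr, and so without control mouse 1, it was -0.0063. It was 0.20 without control mouse 1 alone. Epha10, a receptor that lacks kinase activity, read 40.4 on control mouse 1 and 131 and 118 on the 2 arrays of control mouse 2, which enclosed the transgenic values of 92.5, 78.7 and 109. Its difference of 0.39 (SE 0.55) was thus set by the array of control mouse 1 and became -0.42 without that mouse.

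Among EphB receptors, which act at excitatory synapses, Ephb1 alone passed the filter. It read 349, 412 and 285 in control and 324, 328 and 366 in transgenic mice, all transgenic arrays lying inside the control range (difference -0.05, SE 0.15). Its 95% interval, -0.45 to 0.36, was among the narrower ones. Ephb3, Ephb4 and Ephb6 were at the floor on 3, 5 and 3 of the 6 arrays.

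The 3 tested ephrin-A and the 3 tested ephrin-B ligands were all on the lower side of 0, none past the threshold, with medians of -0.24 and -0.18. Efna3 read 194, 185 and 181 in control and 152, 153 and 185 in transgenic mice, so that the re-LCM arrays of the transgenic mice were low and the remaining one lay within the control range (difference -0.24, SE 0.16). A second Efna3 probe set went the other way, with a difference of 0.45. Efna5, a ligand known for topographic mapping, read 103, 105 and 109 in control and 75.7, 73.2 and 137 in transgenic mice (difference -0.27, SE 0.20). Its control arrays agreed closely and the transgenic arrays fell on both sides of them. Efna2 was level at its chosen probe set, at 230, 222 and 190 against 227, 230 and 179 (difference -0.02, SE 0.17). Its second probe set, also past the filter, read 68.1, 45.8 and 38.8 in control and 37.5, 21.5 and 33.6 in transgenic mice (difference -0.76), without overlap between groups.

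Of the ephrin-B ligands, which signal through their own cytoplasmic tails as well, Efnb1 had the smallest p. It read 110, 96.1 and 118 in control and 95.2, 101 and 90.3 in transgenic mice (difference -0.18, SE 0.15). The transgenic arrays lay at the low end of the control range or just under it, and the other 2 Efnb1 probe sets gave 0.01 and 0.56. Efnb3, a ligand of the adult forebrain, read 564, 496 and 489 against 520, 538 and 435 (difference -0.07, SE 0.17). Efnb2 read 79.7, 80.8 and 70.5 against 45.9, 109 and 72.2 (difference -0.28, SE 0.35), with the transgenic arrays on both sides of the control arrays.

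Efna1, Efna3 and Efna4 are neighbours, with no other protein-coding gene between them in the RefSeq gene table, yet they differed in what the arrays could measure. Efna3 was tested, while Efna1 and Efna4 were too dim. Efna1 read 29.0, 10.9 and 16.7 in control and 36.5, 37.1 and 44.4 in transgenic mice, without overlap, and Efna4 read 6.28, 13.1 and 29.0 against 29.2, 21.2 and 30.7. Without the filter their differences were 0.96 each (SE 0.48 and 0.42, limma adjusted p = 0.884 for each), against -0.24 for Efna3. A second Efna1 probe set was at the floor on all 6 arrays. The 250 bases before the start of each gene, from RefSeq in build GRCm38.p6, are shown so that these adjacent ligand genes can be compared. All 3 lie on the minus strand, at chr3:89338029-89338278 for Efna4, chr3:89322940-89323189 for Efna3 and chr3:89280952-89281201 for Efna1, and are written 5′ to 3′ with the GC box GGGCGG, on either strand, in capitals.
Efna4: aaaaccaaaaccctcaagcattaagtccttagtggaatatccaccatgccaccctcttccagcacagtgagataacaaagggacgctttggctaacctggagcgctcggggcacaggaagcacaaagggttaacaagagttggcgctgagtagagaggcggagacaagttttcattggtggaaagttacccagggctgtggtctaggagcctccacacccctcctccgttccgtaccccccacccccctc
Efna3: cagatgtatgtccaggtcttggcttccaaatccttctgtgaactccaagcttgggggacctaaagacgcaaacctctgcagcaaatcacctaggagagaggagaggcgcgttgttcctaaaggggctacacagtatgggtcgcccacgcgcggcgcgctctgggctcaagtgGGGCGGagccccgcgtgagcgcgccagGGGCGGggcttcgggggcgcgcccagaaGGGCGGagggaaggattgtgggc
Efna1: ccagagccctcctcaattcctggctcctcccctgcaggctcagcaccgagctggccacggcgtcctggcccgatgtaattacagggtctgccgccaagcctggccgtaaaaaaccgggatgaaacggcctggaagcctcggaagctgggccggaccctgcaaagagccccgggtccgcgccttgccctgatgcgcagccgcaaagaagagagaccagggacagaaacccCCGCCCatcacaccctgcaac

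The Efna3 window held 3 GC boxes and 19 CG dinucleotides, that of Efna1 held 1 and 16, and that of Efna4 held 0 and 7. The table gives 2 start sites each for Efna3 and Efna1, of which the upstream one is shown. Of the 37 guidance genes, 32 matched the promoter table, with 37 promoters in all. A GC box was found in 70.3% of these, against 32.7% of all 32851 promoters of the same length. Their median number of CG dinucleotides was 16 against 6. The palindromic E-box CACGTG was in 5.41% against 6.02%, and TATAAA, on either strand, in 5.41% against 12.4%. The 32851 promoters, of 27025 genes, were not limited by gene type or expression, so they are not a matched set. These counts describe sequence only, since no promoter was assayed.

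The 2 tested Slits lay on opposite sides of 0. Slit1 read 283, 345 and 423 in control and 522, 382 and 423 in transgenic mice (difference 0.48, SE 0.24, 95% interval -0.15 to 1.11). The array of transgenic mouse 1 was above all others, and the remaining transgenic arrays lay within or at the top of the control range. A second Slit1 probe set gave 0.02. Slit2, a repellent for several hippocampal axons, read 229, 116 and 134 in control and 84.5, 125 and 270 in transgenic mice. Both groups held a high and a low mouse or array, and the difference of -0.44 had an SE of 0.49. It became 0.00025 without control mouse 1 and 0.12 without transgenic mouse 1. Slit3 was dim, at 3.66 to 41.3.

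All 4 Robo receptors were tested and none moved past the threshold. Robo1 read 394, 436 and 386 in control and 358, 455 and 447 in transgenic mice, a difference of -0.00038 (SE 0.19, 95% interval -0.49 to 0.49). Robo2, its neighbour in the genome, read 201, 162 and 175 against 101, 145 and 199 (difference -0.49, SE 0.30). Transgenic mouse 1 was lowest for Robo2, and without that mouse the difference was -0.11. Within the re-LCM arrays Robo2 gave -0.73 and within the others 0.24, each against 1 control mouse. Robo3, whose product modulates the response to Slits, read 74.7, 70.9 and 122 against 56.3, 102 and 100 (difference -0.15, SE 0.33). Robo4 is known from endothelial cells and read 35.0, 81.3 and 56.2 against 42.0, 52.5 and 34.9 (difference -0.20, SE 0.34). Vascular marker sums on the same arrays were 516, 490 and 342 in control and 379, 309 and 355 in transgenic mice. These ranges overlapped, and their part in the Robo4 values was not tested.

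Ntn4, a netrin related to laminins and found in basement membranes, had the smallest p of all members. It read 44.2, 48.7 and 31.7 in control and 25.9, 56.6 and 19.7 in transgenic mice. Transgenic mouse 2 gave both the highest value and the lowest, and these entered the fit as their mean. The difference was -0.50 (SE 0.20, 95% interval -1.03 to 0.02, limma unadjusted p = 0.0559 and adjusted p = 0.999). It was the 1 tested member of 24 to differ by more than 0.5, against 10.3% of all tested genes, and with the floor at the median intensity it was -0.12. Ntn1, the netrin studied most as an axon attractant, did not pass the filter. It read 27.2, 43.4 and 37.9 in control and 7.77, 23.6 and 14.9 in transgenic mice, without overlap between groups. Without the filter its difference was -1.27 (SE 0.46, limma adjusted p = 0.829), with transgenic mouse 1 at the floor, and a second, dimmer Ntn1 probe set gave -0.31. Ntn3 and Ntn5 scattered around the floor, at 3.48 to 33.8 and 3.39 to 39.3.

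The netrin receptors were better measured than the netrins. Dcc, the attractive receptor, read 219, 227 and 244 in control and 153, 245 and 280 in transgenic mice (difference -0.18, SE 0.30). The transgenic arrays lay on both sides of the control arrays, and without transgenic mouse 1 the difference was 0.21. A second Dcc probe set gave -0.15, and another, which did not pass the filter, read 16.1, 49.96 and 4.90 against 51.1, 42.8 and 42.9. That dim probe set went the other way, with a difference of 1.30 and 1 control array at the floor. Unc5a read 165, 193 and 153 against 167, 199 and 165, a difference of 0.05 (SE 0.16) with ranges that overlapped widely. Unc5c read 355, 260 and 303 against 261, 289 and 341 (difference -0.14, SE 0.21). Unc5d read 128, 135 and 155 against 118, 57.6 and 183, with transgenic mouse 2 giving both its lowest and its highest value (difference -0.30, SE 0.17). Unc5b, known from vascular and neuronal guidance, was dim at 6.29 to 49.2. Its difference without the filter was 1.17 (SE 0.70, limma adjusted p = 0.884), and a second probe set, also dim, gave -0.21.

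**Figure D2:**
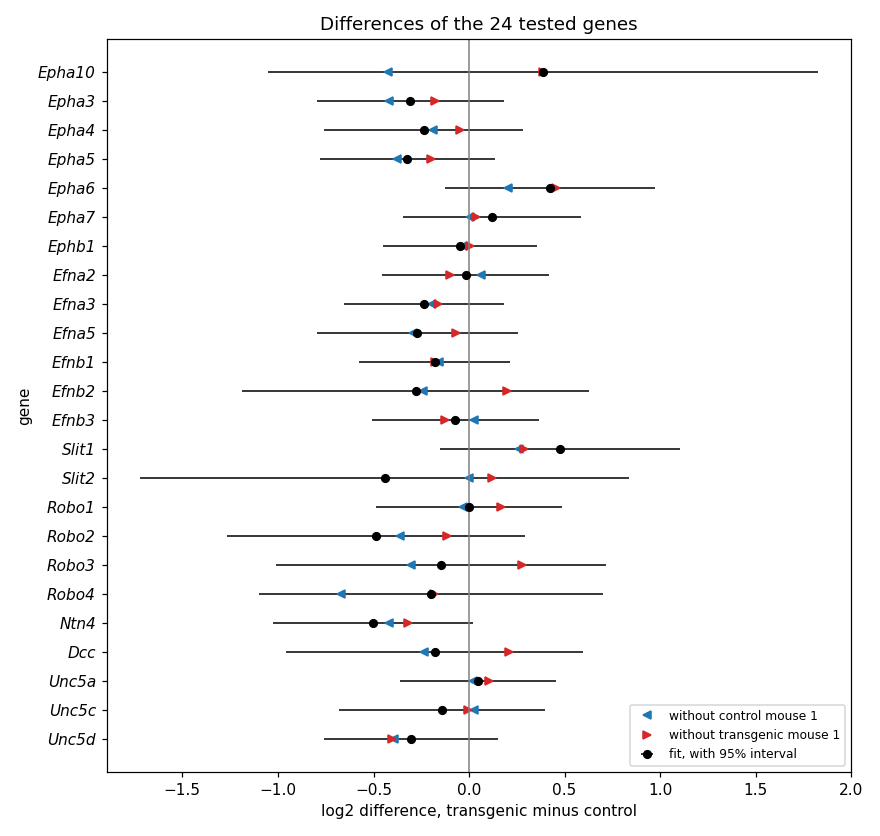
Log2 difference of transgenic minus control for the 24 tested guidance genes (black points, bars are 95% intervals of the limma fit on 2 mice per group), with the value without control mouse 1 (blue) and without transgenic mouse 1 (red). Every interval holds 0, and leaving out 1 of these mice moves Epha10, Ephb1, Efna2, Efnb2, Efnb3, Slit2, Robo1, Robo3, Dcc and Unc5c across 0.

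Across the 24 tested members 5 were higher and 19 lower, with a median of -0.18, while 50.5% of all tested genes were higher and their median was 0.0026. The receptors had 4 higher and 11 lower and the ligands 1 higher and 8 lower. The 95% interval lay within 1 log2 unit either way for 16 of the 24, so a 2-fold change in either direction was outside it for these genes only. The widest were those of Slit2, down to -1.72, and Epha10, up to 1.82. For 21 of the 24 (87.5%) the group difference was smaller than that between the 2 arrays of control mouse 2 or of transgenic mouse 2, as it was for 84.7% of all tested genes.

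The lower values came mostly from 1 array. On that of transgenic mouse 1, 14 of the 24 members (58.3%) lay below all 3 control arrays and 2 above, against 25.2% and 23.7% of all tested genes. The mean deviation of the 24 members from their 6-array means was -0.22 on that array, -0.02 and 0.10 on the arrays of transgenic mouse 2, and -0.02, 0.09 and 0.08 on the control arrays. Without transgenic mouse 1 the median over the members was -0.03, with 13 of 24 lower, and with the 6 arrays taken as separate samples it was -0.09. Several marker lists of other cells were also lowest on that array, with mean deviations of -0.59 for oligodendrocyte, -0.54 for immature neuron, -0.30 for microglia and -0.23 for astrocyte markers. Interneuron markers were at -0.24 there and at -0.28 on control mouse 2 array 2. The 2 tested choroid plexus markers were at -0.32, above both arrays of control mouse 2 (-1.12 and -1.37). Vascular markers were at -0.04, granule cell markers at -0.0097 and pyramidal cell markers at 0.12. Their part in the lower guidance gene values was not tested. In bulk RNA, fewer cells of a type and less RNA per cell cannot be told apart.

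**Figure D3:**
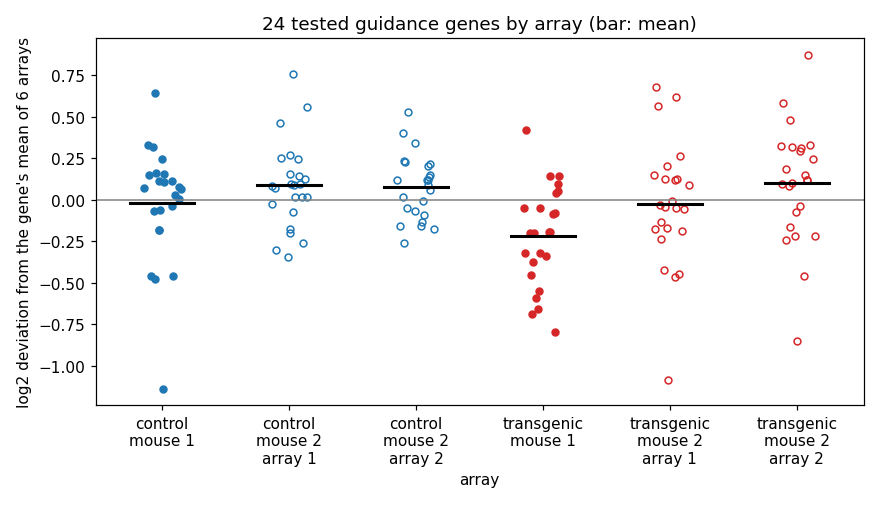
Log2 deviation of each of the 24 tested guidance genes from its own mean over the 6 arrays, by array, with the mean as a black bar (control in blue, transgenic in red). The bar of transgenic mouse 1 sits at -0.22 and the other bars between -0.02 and 0.10, and the points of all arrays overlap.

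Probe sets of a gene agreed only in part. Of the 12 tested members with several probe sets past the filter, 6 had all of them on the same side of 0: Epha3, Epha4, Efna2, Efnb2, Slit1 and Dcc. For Efna3, Efnb1 and Unc5c a second probe set turned the sign, and the mean over probe sets was 0.11 for Efna3 and 0.13 for Efnb1. Of the 73 member probe sets 44 passed the filter and 5 were at the floor on all 6 arrays. The 13 untested genes were Epha1, Epha2, Epha8, Ephb3, Ephb4, Ephb6, Efna1, Efna4, Slit3, Ntn1, Ntn3, Ntn5 and Unc5b.

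**Figure D4:**
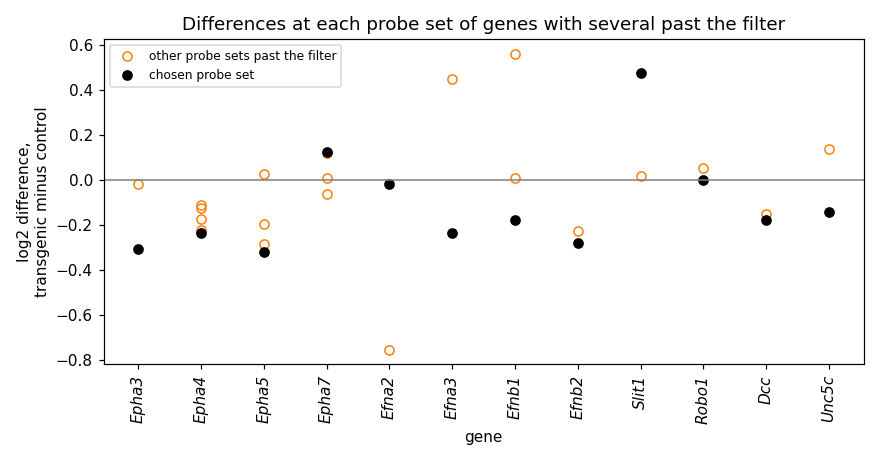
Log2 difference of transgenic minus control at each probe set past the filter for the 12 tested guidance genes with more than 1, with the chosen probe set in black and the others as open circles. Differences span 0 within Epha5, Epha7, Efna3, Efnb1, Robo1 and Unc5c.

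Partners of these pathways, meaning effectors, adaptors, co-receptors and other ligands, showed no change past the threshold. Of 67 listed genes 63 were in the table and 59 were tested, with 33 higher and 26 lower (median 0.03). None passed over all genes (limma), 2 had an unadjusted p under 0.05, against 4.31% of all tested genes, and 7 did not overlap between groups, 4 higher and 3 lower, against 8.07%. Gpc1, a heparan sulfate proteoglycan that binds Slits, read 115, 137 and 156 in control and 223, 212 and 167 in transgenic mice (difference 0.66, SE 0.20). Srgap1, a GTPase-activating protein downstream of Robo receptors, read 60.7, 54.9 and 57.2 against 16.03, 51.2 and 24.7 (difference -1.29, SE 0.41), and it was -0.71 without transgenic mouse 1, -1.86 without transgenic mouse 2 and -0.61 with the floor at the median intensity. Srgap2 of the same family read 185, 196 and 179 against 254, 243 and 207 (difference 0.36, SE 0.16), but the mean over its 3 probe sets past the filter gave 0.01.

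Fyn, a Src family kinase that acts below Eph receptors and Dcc, read 846, 705 and 690 against 554, 609 and 563 (difference -0.43, SE 0.18), all transgenic arrays below all control arrays, and the mean over its 2 probe sets gave -0.28. Chn2, a Rac GTPase-activating protein of the chimaerin family, read 147, 100 and 110 against 87.6, 85.5 and 96.8 (difference -0.48, SE 0.22), and its control mouse 1 array stood highest, with -0.24 without that mouse and -0.72 without control mouse 2. Without the 2 arrays high in Ttr, and so without control mouse 1, Chn2 was at -0.19 and Gpc1 at 0.40. Trio, a guanine nucleotide exchange factor that acts below Dcc, read 532, 523 and 667 against 708, 695 and 684 (difference 0.32, SE 0.16), while the mean over its 5 probe sets past the filter gave 0.04. For these 6 partner genes the groups did not overlap at the chosen probe sets, yet limma gave each adjusted p = 0.999.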

How the data were processed

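RNA of isolated hippocampal cells of 2 control and 2 transgenic mice was measured on 6 arrays. The values are intensities of probe sets on a linear scale, as deposited and scaled by the authors: from the values, the 2% trimmed mean is 150.001 on each array. No summarisation program, background correction or build is named by the labels. Depth does not apply, and the number of mice limits precision. Whether mice are separate litters is not given.

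Control probe sets (64) were left out. Of the rest 34945 had 1 gene symbol, 932 several and 9160 none in the platform annotation. Intensities were floored at 10.1 and log2 was taken. The 2 arrays of a mouse were averaged, and limma 3.58.1 (R 4.3.3; lmFit, eBayes) compared the groups across all 14678 tested genes (2 residual and 2.70 prior degrees of freedom), adjusted by Benjamini-Hochberg. The fit was tested on simulated data.

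Members, lists and tests were chosen with earlier results of these data known. Values on every array were given for members without overlap, the 8 of smallest p and the first of each role group, and for the 6 partner genes of smallest p. Other members were given the same way after their values were seen. Promoters come from RefSeq. Alternatives changed scaling, floor, filter, probe sets, replicate unit, covariates, the variance model and which mice or arrays entered, and 1, without the arrays high in Ttr, was added after the data were seen. That setting leaves control mouse 2 as the only control mouse.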

Additional observations from a re-analysis of the deposited data

How the results depend on the processing

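No guidance gene and no partner gene passed the threshold under any of 18 other settings or without the 2 arrays high in Ttr, and the count over all genes was 0 in each but 1 (1 gene with a variance trend and robust variance). The labels do not say whether mice of the same number are paired. The mouse 1 minus mouse 2 differences of the groups correlated at r = 0.03 across genes. With 1 such difference per group this cannot settle whether the mice are paired. With the mouse number as a replicate block the members' median stayed at -0.18, with 0 genes called and 702 at an unadjusted p under 0.05, against 632.

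Signs turned in 41 of 432 member values under these 18 settings, and the cause was not tested. With the mean of probe sets Efna3 was at 0.11, Efnb1 at 0.13 and Robo1 at 0.025. Robo1 was at 0.046 with the 6 arrays as separate samples. With the mouse as a random block (estimated correlation -0.54) the median was -0.031, Epha10 was at -0.12, Epha7 at -0.0058, Efnb2 at 0.042, Slit2 at 0.18, Robo1 at 0.086, Robo3 at 0.019, Dcc at 0.029 and Unc5c at 0.047. With the re-LCM tag as a term Robo1 was at 0.080, Robo3 at 0.063 and Dcc at 0.038. Without the 2 arrays high in Ttr, and so without control mouse 1, Epha10 was at -0.30, Epha6 at -0.0063, Ephb1 at 0.0060 and Slit2 at 0.28. Unc5a was then at -0.050, Unc5c at 0.087 and Unc5d at 0.023, and 6 members (25%) did not overlap, against 31.2% of all tested genes.

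Over the leave-outs of a mouse or array 1 to 16 members (4.17% to 66.7%) did not overlap, against 15.7% to 48.9% of all tested genes, and the median ran from -0.24 to -0.027. The ranges were -0.42 to 1.19 for Epha10, -0.18 to 0.087 for Ephb1, -0.11 to 0.072 for Efna2, -0.76 to 0.20 for Efnb2, -0.17 to 0.026 for Efnb3 and -0.999 to 0.12 for Slit2. For receptors of Slits and netrins they were -0.17 to 0.17 (Robo1), -0.57 to 0.28 (Robo3), -0.67 to 0.28 (Robo4), -0.57 to 0.21 (Dcc), -0.037 to 0.13 (Unc5a), -0.31 to 0.028 (Unc5c) and -0.72 to 0.11 (Unc5d). The other 11 tested members kept their direction in these leave-outs, but not their size: -0.51 to -0.11 for Epha3, -0.43 to -0.045 for Epha4, -0.51 to -0.13 for Epha5, 0.20 to 0.65 for Epha6, 0.0052 to 0.24 for Epha7, -0.31 to -0.16 for Efna3, -0.50 to -0.044 for Efna5, -0.25 to -0.11 for Efnb1, 0.26 to 0.69 for Slit1, -0.86 to -0.11 for Robo2 and -0.89 to -0.12 for Ntn4. How background was subtracted is not known, which limits what dim probe sets can show.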
